A study of Homo sapiens with 9 samples.

Results

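Metallothioneins are small intracellular proteins, rich in cysteine, that bind zinc, copper and cadmium through clusters of thiolate bonds and can also bind platinum. In human cells most of their genes lie side by side on the long arm of chromosome 16. MTF1, a transcription factor that senses zinc, switches several of them on through short metal response elements (MREs) near the start of the gene, and zinc, glucocorticoids and oxidative stress are known inducers. MT1 and MT2A are the forms found in most tissues, while MT3 is known mainly from the nervous system.

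The genes described are MT1A, MT1E, MT1F, MT1G, MT1H, MT1M, MT1X, MT2A and MT3, a set of 9 named members of the family chosen by symbol and not by their values. Every array probe that the platform annotation assigned to them was taken. These were 10 of 48803 probes and stood for 8 of the 9 genes, among 18852 named genes in all. MT1E and MT1H had 2 probes each and the others 1, and MT1A is not analysed here. Total RNA had been measured on Illumina bead arrays from 3 lines of human ovarian carcinoma cells, with 3 samples per line that the submitters describe as independent. IGROV-1/Pt1 (Pt1) is the cisplatin-resistant variant, derived from the parental line under that platinum drug, which forms crosslinks in DNA. The variant IGROV-1/OHP (OHP) is labelled as resistant to oxaliplatin, a related platinum drug, although the design text of the series names cisplatin for it too. The parental IGROV-1 line is cisplatin-sensitive. All 3 lines share the IGROV-1 background and were harvested while growing exponentially, and the labels name no drug in the culture at harvest. Each variant is a single line, so the spread given is that between samples of a line, not between separately derived resistant lines.

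Values are deposited intensities on a linear scale. A probe was taken to be at background on an array where its intensity did not exceed 302.19, the 97.5 percentile of 431 probes for olfactory receptors, which these cells are not expected to express. Precision is limited by the 3 arrays per line. Between 10300 and 10516 of the genes lay above that ceiling on each array. OHP array 2 stood apart from its line. Across genes, which are not independent replicates, its log2 values correlated at 0.942 and 0.926 with OHP arrays 1 and 3, which correlated at 0.99 with each other, and at 0.956 with parental array 2. For the metallothioneins, and for counts over the lists of related genes, results are given with and without it. Of 10 markers of epithelium or ovarian carcinoma, 9 lay above the ceiling on all 3 arrays of at least 1 line. Against parental cells 3 of the 10 were called higher and 4 lower in Pt1, and 2 higher and 2 lower in OHP, or 3 higher and 5 lower in OHP with array 2 left out. Of all genes, 9.88% were called in Pt1 and 5.41% in OHP, or 16.7% in OHP with that array left out. MSLN, a surface antigen of ovarian carcinoma, read 11405.23 to 12292.92 in Pt1 and 7785.74 to 17866.55 in OHP, against 270.95 to 334.78 in parental cells. EPCAM, a surface adhesion molecule of epithelia, was at background on all 3 Pt1 arrays, at 205.28 to 237.39, against 1030.37 to 3665.89 on OHP arrays and 16635.54 to 24996.37 on parental arrays. None of 6 fibroblast markers reached the ceiling on all arrays of a line. Of 5 measured leucocyte markers LYZ did, in OHP, and of 4 endothelial markers PECAM1 and VWF did, at 314.45 to 509.77 and 838.88 to 9603.78 over all arrays, neither of them called with all arrays, though PECAM1 was called higher in Pt1 and VWF in OHP with OHP array 2 left out. LYZ was then called lower in Pt1. A further endothelial marker, CDH5, was called higher in Pt1 (limma adjusted p = 0.0443), at 259.12 to 368.07 in Pt1 against 198.10 to 227.35 in parental cells, where it was at background. The call of CDH5 ended without Pt1 array 2 or 3, OHP array 1 or any 1 parental array (limma adjusted p up to 0.181). PTPRC, the pan-leucocyte surface phosphatase, lay between 183.71 and 249.63 on all arrays. The part of these markers in the results below was not tested.

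The 300 bases around the annotated start of a gene (250 before it and 50 after) were at hand for 3 of the 9 members, MT2A, MT1X and MT1H, from RefSeq on GRCh38.p14. They are shown because MT2A and MT1X were the members with signal above background, whereas MT1H was at background in every line. The promoter of SLC30A1, which encodes the zinc exporter ZnT1 and is another known target of MTF1, is shown beside them. Capitals mark the core of the MRE, searched as TGCACNC and TGCGCNC on both strands.
MT2A (chr16:56608334-56608633, plus strand): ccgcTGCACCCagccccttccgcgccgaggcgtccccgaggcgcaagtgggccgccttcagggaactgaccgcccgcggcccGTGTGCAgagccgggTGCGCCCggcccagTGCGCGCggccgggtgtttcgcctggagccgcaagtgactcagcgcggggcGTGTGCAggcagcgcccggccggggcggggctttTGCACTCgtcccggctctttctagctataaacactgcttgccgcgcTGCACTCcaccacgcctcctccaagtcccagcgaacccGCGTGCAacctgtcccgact
MT1X (chr16:56682220-56682519, plus strand): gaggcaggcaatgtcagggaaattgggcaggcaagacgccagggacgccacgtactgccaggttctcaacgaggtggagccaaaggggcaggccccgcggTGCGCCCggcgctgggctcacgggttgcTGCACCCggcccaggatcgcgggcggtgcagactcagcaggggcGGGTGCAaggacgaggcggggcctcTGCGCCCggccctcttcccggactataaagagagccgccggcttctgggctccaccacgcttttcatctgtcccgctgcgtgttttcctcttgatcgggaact
MT1H (chr16:56669564-56669863, plus strand): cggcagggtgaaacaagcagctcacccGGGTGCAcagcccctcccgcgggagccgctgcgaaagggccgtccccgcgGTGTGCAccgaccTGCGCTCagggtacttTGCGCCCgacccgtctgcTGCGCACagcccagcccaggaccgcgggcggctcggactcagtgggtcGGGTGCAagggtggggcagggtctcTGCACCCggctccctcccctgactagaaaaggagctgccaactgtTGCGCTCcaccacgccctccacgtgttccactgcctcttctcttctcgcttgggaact
SLC30A1 (chr1:211579112-211579411, minus strand): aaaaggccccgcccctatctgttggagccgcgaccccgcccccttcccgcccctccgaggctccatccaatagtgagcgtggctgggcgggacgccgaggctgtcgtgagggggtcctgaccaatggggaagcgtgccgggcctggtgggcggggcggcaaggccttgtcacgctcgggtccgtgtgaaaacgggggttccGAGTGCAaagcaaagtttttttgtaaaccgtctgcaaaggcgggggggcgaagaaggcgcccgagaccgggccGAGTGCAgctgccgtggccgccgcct

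The MT2A window held 8 such cores, the MT1X window 4, the MT1H window 8 and the SLC30A1 window 2, with no overlap between matches. Of 35116 promoter windows of this length, 29.6% held at least 1 core, 8.6% at least 2, 0.601% at least 4 and 0.0199% at least 8. The core TGACNNNGC of the antioxidant response element, searched the same way, occurred 1 time each in the MT2A, MT1X and SLC30A1 windows, 0 times in the MT1H window and in 13.3% of all windows. None of these matches overlapped an MRE core. The window of MTF1 itself, on chromosome 1, held 0 matches to either core. A match describes letters in a window and shows no binding there.

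MT2A and MT1X were the members expressed above background, and they were so on all 9 arrays. The other 6 measured genes gave intensities between 172.44 and 322 over all of their probes and arrays. MT1F, an MT1 isoform, came nearest to the ceiling and exceeded it on 1 array of each line, with 290.57 to 303.46 in Pt1, 277.92 to 322 in OHP and 257.53 to 303.07 in parental cells. The probes of MT1E, MT1G, MT1H, MT1M and MT3 were at background on every array. Among them MT3, a growth inhibitor of neurons, read 195.21 to 200.77 in Pt1, 187.61 to 212.20 in OHP and 184.18 to 205.95 in parental cells. MT1M, an MT1 isoform, read 190.36 to 194.66 in Pt1, 181.98 to 188.58 in OHP and 187.02 to 211.94 in parental cells. MT1G, also an MT1 isoform, read 214.73 to 268.23 in Pt1, 228.68 to 269.32 in OHP and 205.52 to 280.67 in parental cells. These ranges leave no order between the lines for MT1G and MT3, at a level that also holds probes of genes not expected in the cells. Of the rest of the family, MT1B, MT4 and the pseudogene MT1L were at background on all arrays too, at 156.63 to 264.30.

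**Figure D1:**
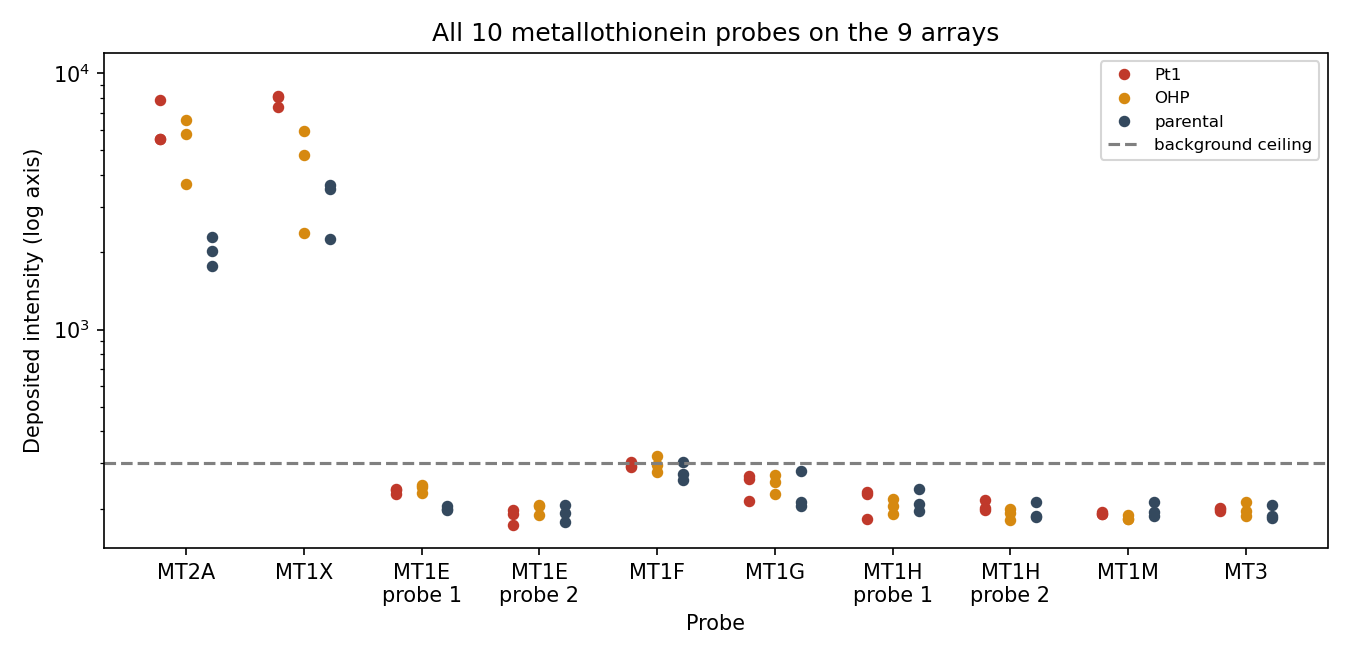
Deposited intensity (log axis) of the 10 metallothionein probes, with a point for each of 3 Pt1, 3 OHP and 3 parental arrays. The probes of MT2A and MT1X lie above the dashed background ceiling of 302.19 on every array, while the other 8 probes lie between 172.44 and 322.

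MT2A, the single MT2 gene and a broadly expressed family member, was higher in both resistant lines. Its intensities were 5542.77, 7861.74 and 5541.49 on Pt1 arrays 1, 2 and 3 and 6569.58, 3695.96 and 5775.32 on OHP arrays 1, 2 and 3, against 2017.80, 2293.35 and 1765.77 on parental arrays 1, 2 and 3. All 6 resistant arrays lay above all 3 parental arrays, and OHP array 2 was the lowest of the 6. Arrays without overlap and higher in the resistant line were found for 18.2% of all genes in Pt1 and for 7.53% in OHP. The mean was 6315 ± 1339 in Pt1 and 5347 ± 1484 in OHP, against 2026 ± 264 in parental cells (SD, n = 3 arrays each). On the log2 scale after background correction, MT2A rose by 1.68 ± 0.25 in Pt1 against parental cells (SE, limma adjusted p = 0.00228), a fitted fold of 3.20. It rose by 1.41 ± 0.25 in OHP against parental cells (limma adjusted p = 0.00977), a fitted fold of 2.66. The rise in Pt1 passed the test whichever array was left out, with adjusted p of 0.0147 or less. The rise in OHP ended without parental array 3, at 1.31 (limma adjusted p = 0.0536), and stood at 1.66 (limma adjusted p = 7.98e-05) without OHP array 2.

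MT1X, a broadly expressed MT1 isoform, was higher in Pt1. Its intensities were 7389.15, 8189.36 and 8070 on the Pt1 arrays and 5967.85, 2370.63 and 4783.14 on OHP arrays 1, 2 and 3, against 2257.55, 3547.85 and 3656.08 on parental arrays 1, 2 and 3. The Pt1 arrays lay close together and above every other array. OHP arrays 1 and 3 lay above the parental arrays, whereas OHP array 2 lay among them. The mean was 7883 ± 432 in Pt1 and 4374 ± 1833 in OHP, against 3154 ± 778 in parental cells (SD, n = 3 arrays each). MT1X rose by 1.38 ± 0.34 on the log2 scale in Pt1 (limma adjusted p = 0.0293), a fitted fold of 2.61. This call ended when any 1 of the Pt1 or parental arrays was left out, with adjusted p between 0.0575 and 0.120 and a change of 1.15 to 1.51, and without OHP array 2 the adjusted p was 0.000159. In OHP the change was 0.41 ± 0.34 (limma adjusted p = 0.663), with a 95% interval of -0.34 to 1.17. Without OHP array 2 MT1X passed the test in OHP, at 0.81 (limma adjusted p = 0.0220).

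**Figure D2:**
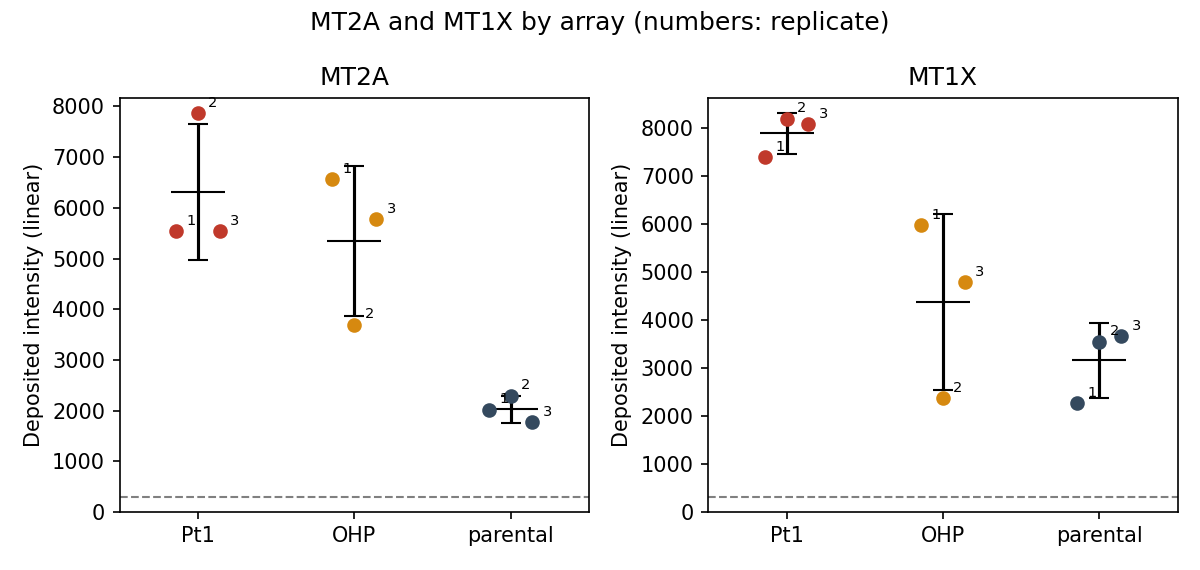
Deposited intensity (linear) of MT2A and MT1X on each array of Pt1, OHP and parental cells, with replicate numbers, the mean and the SD (horizontal mark and bar) and the background ceiling (dashed line). For MT2A all 6 resistant arrays lie above the parental arrays, which end at 2293.35, and for MT1X OHP array 2 lies at 2370.63 among the parental arrays.

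Between the resistant lines no member passed the test. OHP against Pt1 gave -0.27 ± 0.25 for MT2A on the log2 scale (limma adjusted p = 0.591), with a 95% interval of -0.83 to 0.29, and the arrays of the lines overlapped. For MT1X the same comparison gave -0.97 ± 0.34 (limma adjusted p = 0.130), with a 95% interval of -1.72 to -0.22. All OHP arrays were below all Pt1 arrays for MT1X, a lack of overlap in that direction that 13.9% of all genes showed. Without OHP array 2 the values were -0.02 for MT2A (limma adjusted p = 0.980) and -0.57 for MT1X (limma adjusted p = 0.127). The order of the lines for MT1X was Pt1, OHP and parental cells by mean level, with OHP not separated from either neighbour by the test. For MT2A the order was also Pt1, OHP and parental cells, and Pt1 and OHP did not differ beyond the spread of their arrays.

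In all, 2 of the 8 measured members were called in Pt1 against parental cells, both higher, where 9.88% of all genes were called and 4.15% were called higher. In OHP against parental cells 1 of 8 was called, also higher, where 5.41% of all genes were called and 1.75% were called higher. In OHP against Pt1 0 of 8 were called by limma, where 7.59% of all genes were called, and 1 of 8, MT1X, had an unadjusted p under 0.05. Without OHP array 2 the count was 3 of 8 in Pt1 against parental cells, where 25.9% of all genes were called, 2 of 8 in OHP against parental cells, where 16.7% were, and 0 of 8 in OHP against Pt1. For OHP against Pt1, fits without 1 array, whichever it was, called 733 to 2297 of 18852 genes. The median log2 fold change of the 8 genes was 0.16 in Pt1 against parental cells and 0.18 in OHP against parental cells, where the median of all genes was -0.02 and -0.01. It was -0.05 in OHP against Pt1, where the median of all genes was 0.01. Of the 8 genes in these medians, 6 were at or near background. Both resistant lines were compared with the same 3 parental arrays.

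Among the members at background, the brighter MT1E probe showed no overlap between the resistant lines and the parental line. MT1E is an MT1 isoform whose probe read 238.35, 228.34 and 237.41 on the Pt1 arrays and 243.21, 246.92 and 229.60 on the OHP arrays, against 198.95, 196.77 and 205.33 on the parental arrays. All 6 resistant arrays were above the 3 parental ones, although all 9 lay under the ceiling. Of all genes, 18.2% in Pt1 and 7.53% in OHP lay above parental cells without overlap, counted 1 line at a time. The change of MT1E was 0.41 ± 0.14 in Pt1 (limma adjusted p = 0.100) and 0.46 ± 0.14 in OHP (limma adjusted p = 0.0969) and did not pass. The second MT1E probe overlapped between the lines, at 172.44 to 197.78 in Pt1, 188.47 to 206.56 in OHP and 177.54 to 206.25 in parental cells. Its change was -0.08 in Pt1 and 0.12 in OHP against parental cells, with limma adjusted p = 0.915 and 0.883 over all 48803 probes. The probes of MT1H, an MT1 isoform, read 181.60 to 231.71 and 197.01 to 216.69 in Pt1, 191.12 to 217.12 and 181.11 to 198.58 in OHP, and 195.91 to 238.10 and 185.23 to 212.15 in parental cells. Of 10 member probes tested over all probes, those of MT2A and MT1X were called in Pt1 and that of MT2A in OHP, where 5.08% and 2.68% of all probes were called. None of the 10 was called in OHP against Pt1, where 3.58% of all probes were.

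**Figure D3:**
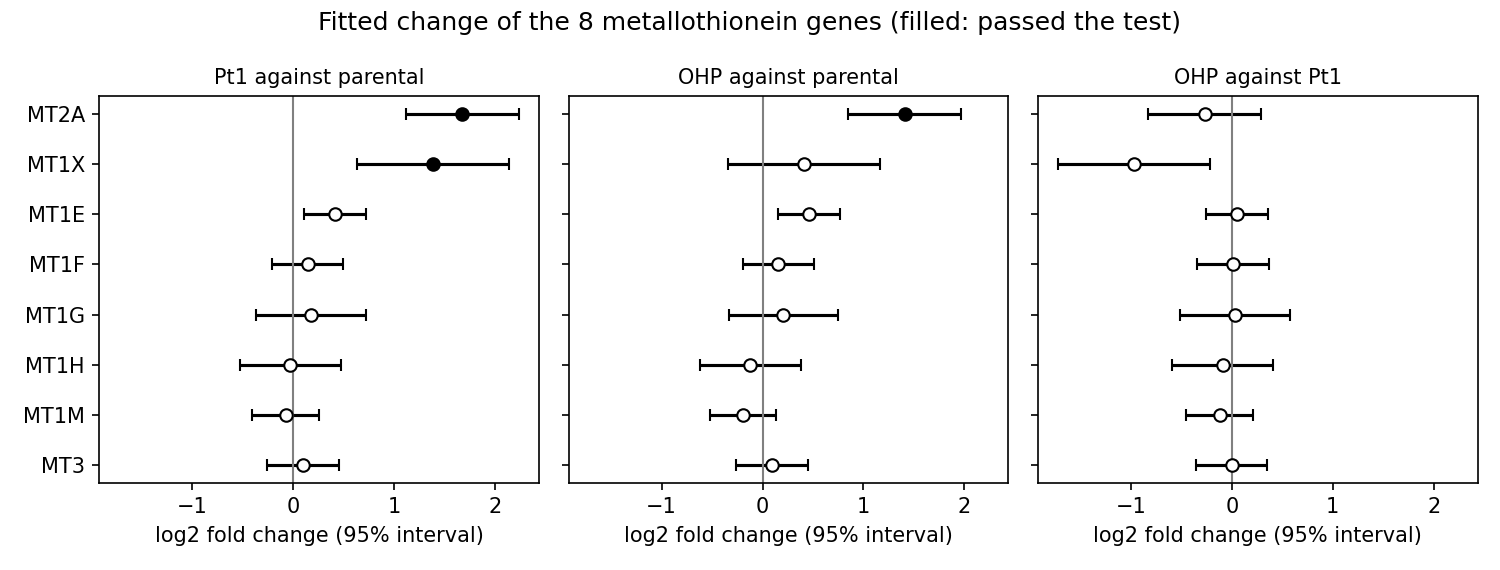
Fitted log2 fold change with its 95% interval for the 8 measured metallothionein genes in Pt1 against parental cells, OHP against parental cells and OHP against Pt1, with filled points where the test was passed. MT2A stands at 1.68 and 1.41 in the resistant lines and MT1X at 1.38 and 0.41, and the other 6 genes, all at or near background, lie within 0.46 of 0.

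MTF1 was lower in both resistant lines, and SLC30A1 had lower intensities there but did not pass the test. MTF1, the zinc-sensing activator of metallothionein genes, had intensities of 2990.13, 3061.95 and 2727.55 in Pt1 and 2686.60, 2306.54 and 2052.34 in OHP, against 6485.41, 4557.58 and 4909.76 in parental cells. All 6 resistant arrays lay below the parental arrays, as they did for 21.3% of all genes in Pt1 and 11.1% in OHP, counted 1 line at a time. MTF1 fell by 0.87 ± 0.18 on the log2 scale in Pt1 (limma adjusted p = 0.0154) and by 1.20 ± 0.18 in OHP (limma adjusted p = 0.00428). The fall in Pt1 ended when parental array 1 or a single array of Pt1 was left out, with adjusted p up to 0.0746, while that in OHP held whichever array was left out.

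SLC30A1, which exports zinc from the cell, had intensities of 1690.68, 1474.56 and 1512.94 on its brighter probe in Pt1 and 2219.34, 683.39 and 1912.41 in OHP, against 3510.63, 2552.72 and 4244.87 in parental cells. All 6 resistant arrays again lay below the parental arrays, and OHP array 2 was far below the rest. Of all genes, 21.3% in Pt1 and 11.1% in OHP lay below parental cells without overlap, counted 1 line at a time. The log2 fold change of SLC30A1 was -1.16 ± 0.43 in Pt1 (limma adjusted p = 0.138) and -1.31 ± 0.43 in OHP (limma adjusted p = 0.136), which did not pass. Without OHP array 2, which enters the spread pooled over the lines, it passed at -1.16 in Pt1 (limma adjusted p = 0.000501) and -0.73 in OHP (limma adjusted p = 0.0313). The second SLC30A1 probe read 967.62, 896.57 and 824.42 in Pt1 and 1428.73, 407.31 and 1090.27 in OHP, against 2348.71, 1829.05 and 2517.13 in parental cells, again without overlap.

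**Figure D4:**
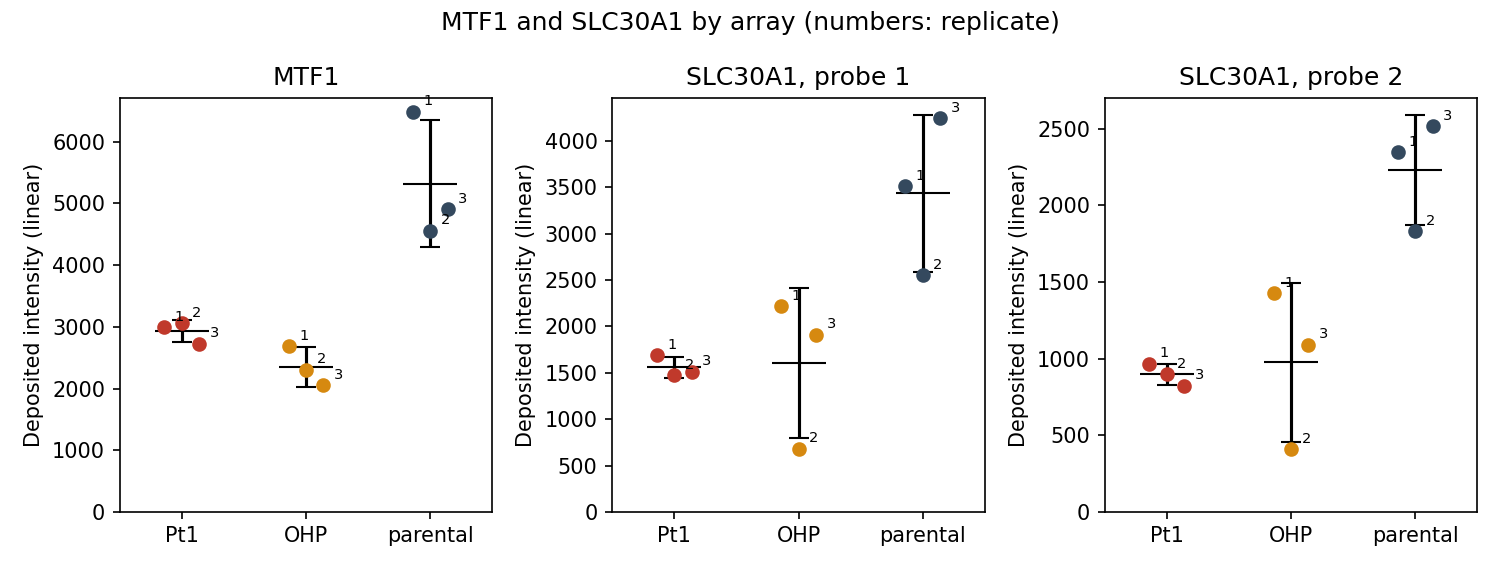
Deposited intensity (linear) of MTF1 and of both SLC30A1 probes on each array of Pt1, OHP and parental cells, with replicate numbers, the mean and the SD. All 6 resistant arrays lie below the parental arrays in each panel, with MTF1 between 2052.34 and 3061.95 in the resistant lines and between 4557.58 and 6485.41 in parental cells.

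Of 13 regulators of metallothionein transcription, MTF1 alone was called in either line against parental cells with all arrays in the fit. With OHP array 2 left out, 5 of the 13 were called in Pt1, with KEAP1, HSF1 and CTCF higher and MTF1 and SP1 lower, and 3 in OHP, with KEAP1 and HSF1 higher and MTF1 lower. With all arrays, 9.88% of all genes were called in Pt1 and 5.41% in OHP against parental cells, and 7.59% in OHP against Pt1. Without OHP array 2 the shares against parental cells were 25.9% and 16.7%. For OHP against Pt1, fits without 1 array, whichever it was, called 733 to 2297 of 18852 genes. The same shares and range stand beside the zinc transporter counts below. HSF1, the transcription factor of the heat shock response, stood at 1.38 in Pt1 with all arrays (limma adjusted p = 0.0592) and without that array (limma adjusted p = 0.0002). NR3C1, the glucocorticoid receptor, was at background in all lines. STAT3, a transcription factor of cytokine signalling, differed between the resistant lines, at 13161 ± 2205 in OHP and 25242 ± 1592 in Pt1 (SD, n = 3 arrays each), and fell by 0.96 ± 0.17 on the log2 scale (limma adjusted p = 0.00703). Of 10 zinc exporters, 5 lay above background in at least 1 line, and SLC30A5, which loads zinc into the secretory pathway, was the only one called with all arrays. It fell by 0.73 ± 0.18 in Pt1 (limma adjusted p = 0.0366), a call that ended without any 1 array other than OHP arrays 2 and 3, with adjusted p up to 0.146. The fit without OHP array 2 called SLC30A6 higher and SLC30A1, SLC30A5 and SLC30A9 lower in Pt1, and SLC30A1 and SLC30A7 lower in OHP. In OHP against Pt1 the same fit called SLC30A9 higher and SLC30A7 lower. Of 14 zinc importers 10 lay above background in at least 1 line, and limma called 0 in each of the 3 comparisons, with 0, 0 and 2 of the 14 at an unadjusted p under 0.05 in Pt1 against parental cells, OHP against parental cells and OHP against Pt1. In the fit without OHP array 2, SLC39A6, SLC39A9 and SLC39A14 were higher and SLC39A7 lower in Pt1, SLC39A6 and SLC39A14 higher in OHP, and SLC39A7 and SLC39A10 higher in OHP against Pt1.

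Among 12 other genes that metals induce, BAG3, a cochaperone, was called in Pt1, and NQO1, a quinone reductase under NRF2, in OHP. BAG3 rose by 0.94 ± 0.24 on the log2 scale in Pt1 (limma adjusted p = 0.0389), a call that remained when OHP array 2 or 3 was left out and ended without any other array. NQO1 had a mean of 22375 ± 6967 in OHP against 63831 ± 4137 in parental cells (SD, n = 3 arrays each) and fell by 1.57 ± 0.23 (limma adjusted p = 0.00365). When OHP array 2 was left out, 6 of the 12 were called in Pt1, with DNAJB1, BAG3, GCLM, TXNRD1 and SRXN1 higher and NQO1 lower, and NQO1 alone in OHP. Of all genes, 9.88% in Pt1 and 5.41% in OHP were called against parental cells with all arrays, and 25.9% and 16.7% in that fit. SRXN1, which reduces oxidised peroxiredoxins, stood at 1.37 in Pt1 with all arrays (limma adjusted p = 0.0742) and without that array (limma adjusted p = 0.000122). The median log2 fold change of these 12 genes was 0.36 in Pt1 and -0.34 in OHP against parental cells. The median of all genes was -0.02 and -0.01. The OHP median includes OHP array 2, and its sign leans on that array, though the median was not recomputed without it. In fits without 1 array, the OHP changes of HSPA1B, DNAJB1, GCLM and SRXN1 reached 0.511, 0.408, 0.869 and 0.45. With all arrays they were -0.256, -0.085, -0.293 and -0.114, and OHP array 2 was the lowest OHP array for each. HMOX1, HSPA6, GCLC, TXNRD1, SLC7A11 and NQO1 stayed negative in every such fit, while HSPA1A and BAG3 were positive with all arrays. GCLM, for example, read 986.62 on OHP array 2 against 9071.36 and 11178.16 on OHP arrays 1 and 3. Of 8 genes induced by glucocorticoids, SGK1, a kinase that regulates ion transport, was called in both lines. SGK1 read 4358.22, 5775.32 and 5342.36 in Pt1 and 2661.65, 2649.50 and 3827.63 in OHP, against 23789.60, 27422.86 and 30995.71 in parental cells. It fell by 2.43 ± 0.21 on the log2 scale in Pt1 (limma adjusted p = 6.35e-05) and by 3.23 ± 0.21 in OHP (limma adjusted p = 1.52e-05), whichever array was left out. FKBP5, a cochaperone of steroid receptors, stood at 1.13 ± 0.34 in Pt1 (limma adjusted p = 0.0713) and 0.28 ± 0.34 in OHP (limma adjusted p = 0.798). With OHP array 2 left out, FKBP5 passed as higher and TSC22D3 and SGK1 as lower in Pt1, while FKBP5 and DUSP1 passed as higher and SGK1 as lower in OHP. These were 3 of 8 in each line, beside the same 25.9% and 16.7% of all genes.

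The metallothionein genes lie in a row on chromosome 16, in the order MT4, MT3, MT2A, MT1L, MT1E, MT1M, MT1A, MT1B, MT1F, MT1G, MT1H and MT1X in the RefSeq annotation with other pseudogenes left out. MT2A and MT1X thus stood near opposite ends of the row, and the measured genes between them were at or near background. On the side of MT4 the nearest listed neighbour was BBS2, a ciliary gene, at 0.21 ± 0.17 in Pt1 (limma adjusted p = 0.555) and -0.16 ± 0.17 in OHP (limma adjusted p = 0.771). On the side of MT1X it was NUP93, of the nuclear pore, which rose by 0.74 ± 0.19 in Pt1 (limma adjusted p = 0.0413) and stood at 0.37 ± 0.19 in OHP (limma adjusted p = 0.424). The call of NUP93 remained when OHP array 2, OHP array 3 or parental array 3 was left out and ended without any other array, with adjusted p up to 0.158. Of 24 measured neighbours, 3 rose and 2 fell in Pt1 and 1 rose and 1 fell in OHP, where 9.88% and 5.41% of all genes were called. Their median log2 fold change was -0.01 in Pt1 and 0.00 in OHP. In the fit without OHP array 2, 7 rose and 3 fell in Pt1, while in OHP again CES1 rose and DOK4 fell. That fit called 25.9% of all genes in Pt1 and 16.7% in OHP against parental cells.

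Besides NUP93, CIAPIN1, a factor of iron-sulphur cluster assembly, rose by 0.92 ± 0.23 in Pt1 (limma adjusted p = 0.0302), which ended when a single array of Pt1, or parental array 1 or 2, was left out. PSME3IP1 rose by 0.77 ± 0.16 in Pt1 (limma adjusted p = 0.0134), which ended without Pt1 array 2 or 3 or parental array 2. DOK4, a docking protein of receptor signalling, fell by 1.22 ± 0.23 in Pt1 (limma adjusted p = 0.00825) and by 1.52 ± 0.23 in OHP (limma adjusted p = 0.00385). CES1, a carboxylesterase, read 12144.30, 15362.06 and 8170.95 in OHP and 226.31, 248.71 and 298.10 in Pt1, against 527.28, 451.67 and 413.94 in parental cells. It was at background in Pt1, was at least 38.1-fold higher in OHP than in Pt1 (limma adjusted p = 7.78e-07), by the geometric mean over the ceiling, and rose by 4.97 ± 0.26 on the log2 scale in OHP against parental cells (limma adjusted p = 4.81e-06). In Pt1 against parental cells its fitted change was -1.20 ± 0.26 (limma adjusted p = 0.0174), which rests on background in Pt1 and was lost when array 1 or 2 of either line was left out.

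**Figure D5:**
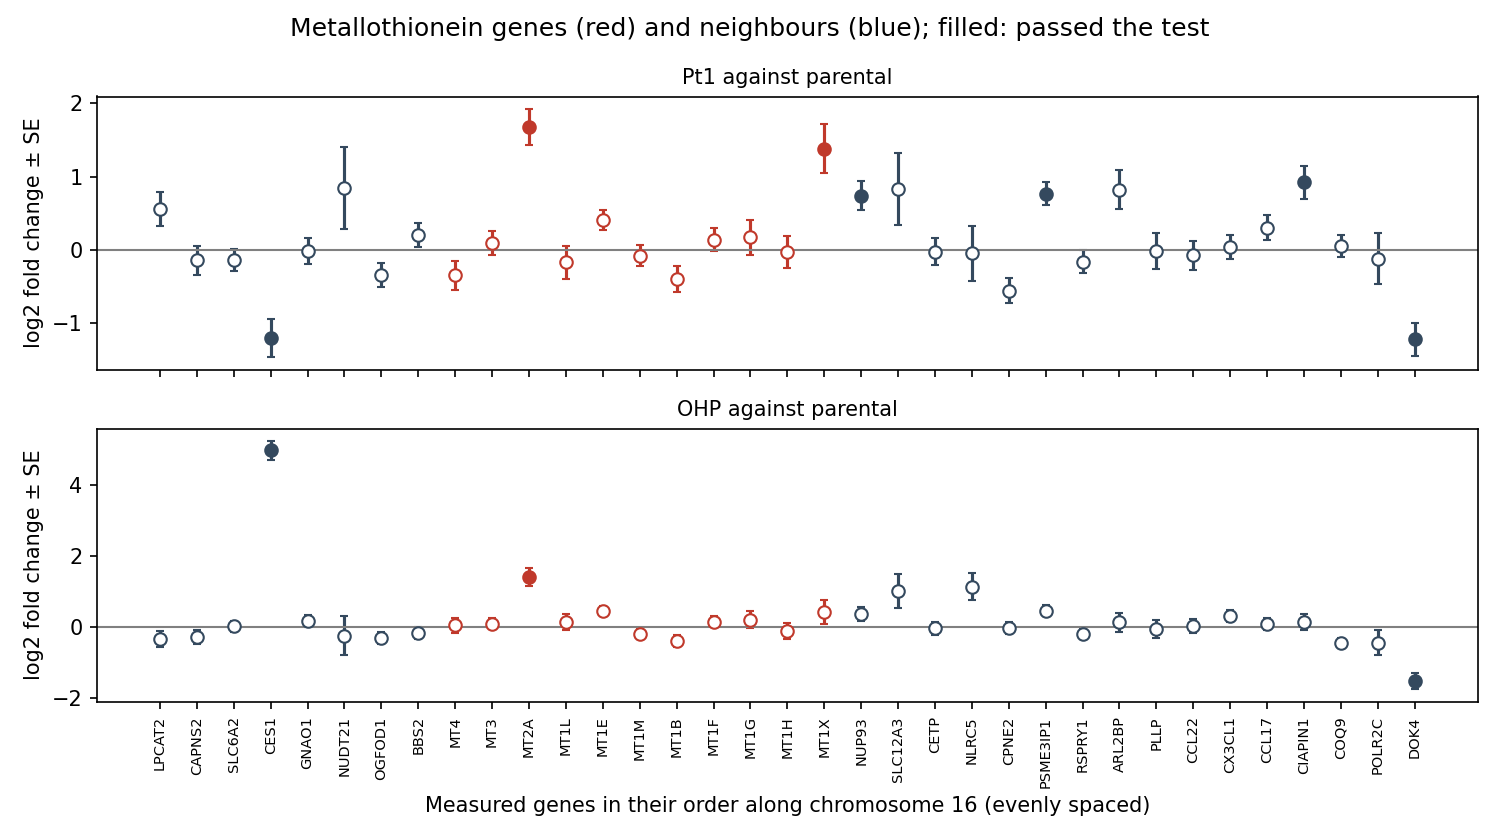
Log2 fold change with SE (n = 3 arrays in each line) of metallothionein genes (red) and neighbours (blue) in Pt1 and in OHP against parental cells, in their order along chromosome 16 at even spacing, with filled points where the test was passed. In Pt1 MT2A at 1.68 and MT1X at 1.38 stand above genes on either side, and in OHP MT2A stands at 1.41 while CES1 stands at 4.97.

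The genes whose pattern over the 9 arrays was most like that of MT2A were PLAU, PDP1 and MORN4, taken by the root mean square difference between log2 values centred on each gene's mean, among 10698 genes of other families above background in at least 1 line. PLAU, the urokinase plasminogen activator, differed by 0.20, while PDP1, a phosphatase that activates pyruvate dehydrogenase, and MORN4 differed by 0.24. PLAU read 692, 717.85 and 639.90 in Pt1 and 712.79, 423.61 and 664.27 in OHP, against 267.14, 243.94 and 228.87 in parental cells. As with MT2A, OHP array 2 was the lowest of the resistant arrays. MT1X differed from MT2A by 0.50 and would have stood at place 209 in that ranking. The genes most like MT1X were GOSR2, a SNARE of the Golgi, at 0.15, and CD83, a surface protein of the immunoglobulin family, and DYNLL2, a dynein light chain, at 0.19. GOSR2 read 2446.54, 2659.62 and 2477.72 in Pt1 and 1504.09, 653.10 and 1395.02 in OHP, against 759.45, 1009.32 and 1052.58 in parental cells. The 9 arrays share 3 lines and the low OHP array 2, so these likenesses describe the arrays measured.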

How the data were processed

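The deposited values used are intensities of 48803 probes on 9 arrays, on a linear scale. The submitters' processing notes name BeadStudio without a version, and no other step is given in the sources used here. The sorted columns differ by at most 1.09%, so the deposited intensities had been quantile normalized between arrays. A table of 9 further signal columns and 9 detection p columns, under array names not found in the sample labels, was not used. normexp (limma 3.58.1 in R 4.3.3, offset 50) and log2 were applied, with no filter. Of the probes, 28098 had 1 gene symbol, 13 several and 20692 none, and each of 18852 genes was represented by its brightest probe (mean log2). One limma fit over all 9 arrays (6 residual and 3.47 prior degrees of freedom) gave 3 contrasts, 2-sided, with calls below 0.05 after Benjamini-Hochberg adjustment over all genes. The spread is pooled over the lines.

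All members were named, with MTF1, SLC30A1, the 3 genes most like each expressed member, and per comparison the up to 3 called genes of each list other than the cell type markers with the largest change. NUP93, PSME3IP1, FKBP5, HSF1, SRXN1, genes called without OHP array 2, NR3C1, BBS2, MT1B, MT4, MT1L and the cell type markers named were picked outside this rule after their values were seen. Deviations of same-numbered samples from their line means correlated at 0.126 to 0.671 in OHP and parental cells, over 0.1 in each pair, at -0.004 to 0.182 in Pt1 and parental cells and at -0.192 to 0.021 in OHP and Pt1. The labels state no pairing, and a fit with the replicate number as a block was an alternative. Members and lists were chosen with earlier results of these data known. In data simulated for Pt1 against parental cells over 18852 genes, with 50 genes given each change, calls were made for 0% of log2 changes of 0.5, 32% of those of 1, 94% of those of 2 and 100% of those of 3, with 6 false calls. Motifs were counted with Python 3.11.15 and plots drawn with matplotlib 3.10.9.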

Additional observations from a re-analysis of the deposited data

Results flagged for a closer look

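The changes of 9 genes from the lists differed between the 2 resistant lines in the limma fit, by the test of OHP against Pt1. They were 1 of 13 regulators, 1 of 12 genes induced by metals and 1 of 8 induced by glucocorticoids. The rest were 1 higher and 1 lower of 24 neighbours, and 2 higher and 2 lower of 10 epithelial or ovarian carcinoma markers. Of all genes 7.59% were called, a share at which 0 of 8 metallothionein genes does not set the family apart. Without OHP array 2, OHP against Pt1 gave calls for 1 of 13 regulators, 4 of 12 metal-induced genes and 3 of 8 glucocorticoid-induced genes. TXNRD1, SLC7A11, SRXN1, NQO1 and SGK1 were lower in OHP, while TSC22D3 and DUSP1 were higher. That fit called 2 of 10 zinc exporters, 2 of 14 zinc importers, 2 of 24 neighbours and 5 of 10 epithelial or ovarian carcinoma markers. Fits without 1 array called 733 to 2297 of 18852 genes in this comparison. CES1 was higher in OHP by a fitted 6.17 on the log2 scale, with all 9 fits that leave out 1 array passing the test. CES1 was at background in Pt1, so that this value is no exact size, and the bound is at least 38.1-fold. Of the epithelial or ovarian carcinoma markers, EPCAM was higher in OHP by a fitted 4.15, also against background in Pt1, with a bound of at least 7.93-fold, and KRT7 was higher by 3.56. KRT8 differed by -2.16 and KRT19 by -0.86, both lower in OHP, and the call of KRT19 ended when parental array 3 or a single array of Pt1 was left out (limma adjusted p up to 0.113). NQO1 differed by -1.05, lower in OHP, a call that ended without any 1 of the Pt1 arrays (limma adjusted p up to 0.0974). STAT3 differed by -0.96, lower in OHP, whichever array was left out. LPCAT2, a lysophospholipid acyltransferase on the same arm of chromosome 16 as the metallothioneins, differed by -0.89, lower in OHP, and SGK1 by -0.79, also lower in OHP. The calls of LPCAT2 and SGK1 remained when OHP array 2 or 3 was left out and ended without any other array, with adjusted p up to 0.168 and 0.187.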

How the results depend on the processing

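Small numbers of arrays limit every call. Of 414 recomputed changes of single metallothionein genes, 401 kept their side of the threshold or were never past it, 6 became called, 7 lost a call and 0 called changes turned sign. With 1 array left out, metallothionein genes called ranged from 1 to 3 in Pt1 against parental cells, 0 to 2 in OHP against parental cells and 0 to 0 in OHP against Pt1. All genes called ranged from 1039 to 4877, 590 to 3148 and 733 to 2297 in these comparisons, where all arrays gave 1863, 1020 and 1430. The 3 members called in Pt1 without OHP array 2 were MT2A, MT1X and MT1E (0.41, limma adjusted p = 0.0482). With only the compared lines in the fit all genes called were 4882, 481 and 847. With array weights they were 4889, 3371 and 4587, and 3 metallothionein genes were called in OHP against parental cells, MT2A, MT1X (0.92) and MT1E (0.47), while MT1E also passed in Pt1. The estimation of these weights stopped before its convergence tolerance was reached. They were 3.395, 0.111 and 0.59 for OHP arrays 1, 2 and 3, so the weighted OHP values rest mostly on OHP array 1. Without OHP array 2 and parental array 2 together all genes called were 4105, 2508 and 2708, and 2 metallothionein genes were called in OHP against parental cells. With a replicate block all genes called were 2095, 1021 and 1598, and MT2A kept its calls at limma adjusted p = 0.00566 in Pt1 and 0.0208 in OHP. The block changed no other call of a gene named from the members and lists and recomputed. With the background ceiling at the 90th percentile MT1F joined MT2A and MT1X above background in all 3 arrays of a line. The alternatives for genes outside the family were chosen after the data were seen.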
